A study of Zea mays with 33 samples.

Results

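The tassel at pollen shed was compared with the silk, the organs that give and receive the pollen of maize. Of the 33 RNA-seq libraries of the series, 6 enter the comparison: the 3 libraries of the tassel (PS_TAS) and the 3 libraries of the silk (PS_SILK), chosen by their titles. All 6 come from wild-type plants of the inbred line B73, grown in a greenhouse, and each library was made from 1 plant. Their titles also share the mark WW, which the labels do not spell out. The PS_TAS libraries hold the tassel parts that carried fresh pollen, from plants sown in September and cut on 25 November (replicate 1) or 28 November (replicates 2 and 3). The PS_SILK libraries hold the growing part of the silks, under the husk, from ears that had been bagged before the silks emerged and were thus not pollinated. The labels carry no harvest date for the silks. The other 27 libraries, 3 from each of 9 tissues, served to measure the spread and to see where else a gene was found. Each organ is a mixture of cells of 1 genotype, and the tassel parts taken can hold anther walls and glumes besides pollen, in shares that are not known.

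The tassel is the male inflorescence of maize. Its anthers release pollen grains, each made of a large vegetative cell, which will grow the pollen tube, and of the sperm cells it carries. Pollen is known for a set of transcripts that few other cells make, for a store of messenger RNA laid down before germination, and for its many mitochondria. The silk is the long stigma and style of a single ovary of the ear. It grows from its base inside the husk, its hairs catch the pollen, and the pollen tube travels through its transmitting tract.

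Reads on genes numbered 25.4 to 27.2 M per PS_TAS library and 24.2 to 29.7 M per PS_SILK library. Of the 46430 features in the files, 44146 are nuclear gene models with an ID, and none of these IDs is paired with a name by the files or the reference table. Thus none of the 20 lists of known genes (pollen wall, gamete, anther, flavonoid, pectin enzyme, photosynthesis and others) could be matched, and the label of each organ could not be checked against its defining markers. The nuclear genes are therefore described by counts, by their levels in other tissues, and by a few IDs. The organelle genes are described by name.

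With TMM scaling, more genes were higher in the tassel than in silk. Genes past a log2 fold change of 1 in either direction were called where edgeR's quasi-likelihood test, adjusted by Benjamini and Hochberg over the 28997 genes tested, gave a p below 0.05. Of these, 8998 were higher in PS_TAS (31% of those tested) and 5908 were higher in PS_SILK (20.4%), which makes 51.4% called in either direction. In the same fit, 55.6% of genes were called between PS_TAS and the ear (PS_EAR), 48.6% between PS_TAS and the adult leaf blade (PS_LF), and 32.8% between PS_EAR and PS_SILK. These comparisons share libraries with the one described here. In bulk organs, fewer cells of a type and less RNA per cell cannot be told apart. The split depended on the scaling of the libraries. With library size alone, 7179 genes were higher in PS_TAS and 9837 in PS_SILK, so that 42.2% of calls were on the tassel side, against 60.4% with TMM, and the median log2 fold change of all genes moved by -0.53. Without tassel replicate 2, which stood apart in its most tassel-bound genes, 9080 and 5956 genes were called, and without tassel replicate 3, 8791 and 5766.

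The differences were larger on the tassel side. The median absolute log2 fold change was 3.79 for the genes higher in PS_TAS and 1.88 for those higher in PS_SILK. A log2 fold change beyond 4 was found for 4306 of the tassel-higher genes (47.9%) and for 845 of the silk-higher genes (14.3%), and one beyond 8 for 1769 and 79 genes. Fitted fold changes of this size depend on the prior count where an organ holds few reads.

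**Figure D1:**
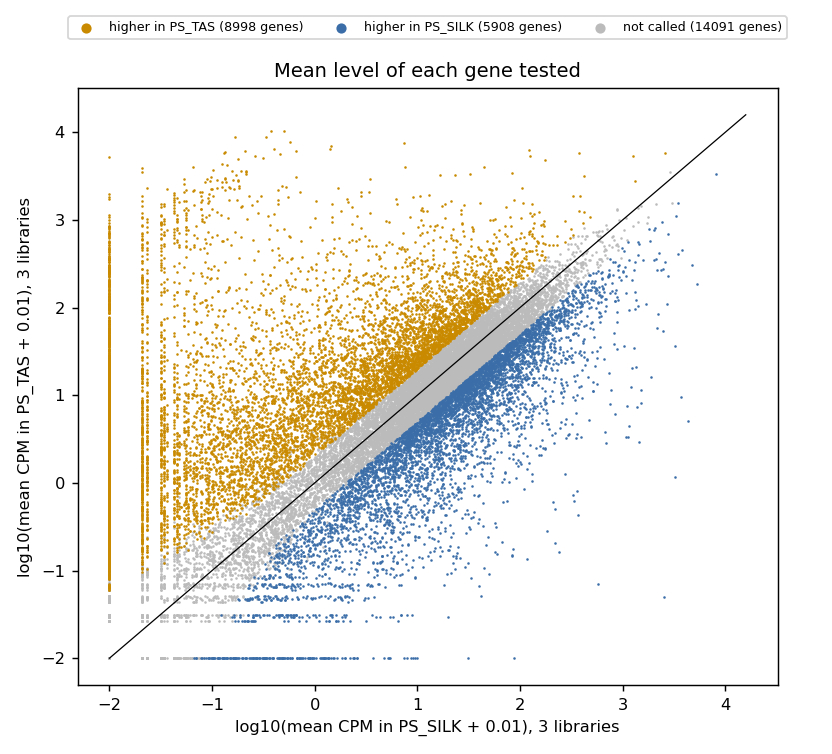
Mean level of each of the 28997 genes tested, with the mean CPM of the 3 PS_TAS libraries on the vertical axis and of the 3 PS_SILK libraries on the horizontal axis, both as log10(CPM + 0.01). The 8998 genes higher in PS_TAS reach far into the upper left, where silk is at or near 0, while most of the 5908 genes higher in PS_SILK lie nearer the diagonal.

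The most abundant transcripts set the organs apart. Levels are given in CPM (counts scaled to library size, after TMM). The TMM factors were 0.596, 0.78 and 0.637 in PS_TAS and 1.05, 1.02 and 1.03 in PS_SILK. The same CPM thus stands for a smaller share of the reads in the tassel than in silk. In PS_TAS, 221 genes reached a mean of 1000 CPM, and 209 of them were higher there than in silk. Their median level in PS_SILK was 0.168 CPM. In PS_SILK, 80 genes reached 1000 CPM and 65 of them were higher there than in tassel, with a median of 228 CPM in PS_TAS. The median abundant tassel-higher gene had little signal in silk, whereas the median abundant silk-higher gene was well detected in the tassel. As both sets were chosen by their calls between these organs, these medians are a description. Some members differed from the median, as the 209 genes together still held about 1% of the silk reads. Of the 834 genes at 100 CPM or more in both organs, 94 were higher in PS_TAS and 180 in PS_SILK, and the others were not called. Over all genes tested, the shares were 31% and 20.4%. A bound of 100 CPM in both organs leaves out genes that are low in either, so these counts are a description.

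Reads were spread over fewer genes in the tassel. Genes holding 50% of the reads on genes numbered 482, 781 and 554 in PS_TAS, against 1218, 1155 and 1159 in PS_SILK. The groups did not overlap, and the exact two-sided permutation test gave p = 0.1, the smallest that 3 against 3 libraries allow. The 100 most abundant genes held 26.1%, 22.2% and 24% of the reads in PS_TAS, against 18.1%, 19% and 18.9% in PS_SILK. At the same time more genes had at least 1 read in the tassel, 30134 ± 53.5 in PS_TAS and 26966 ± 125.1 in PS_SILK (mean ± SD, n = 3 each). The tassel libraries thus held both the longer list of detected genes and the larger share of reads in the 100 most abundant. The single most abundant gene went the other way. It held 0.682% ± 0.102 of the reads in PS_TAS and 0.843% ± 0.0149 in PS_SILK (SD, n = 3 each), without overlap. The 209 abundant tassel-higher genes took 36.1%, 30% and 33.8% of the reads in PS_TAS and between 1.02% and 1.14% in PS_SILK. The 65 abundant silk-higher genes took 1.24%, 1.53% and 1.41% of the reads in PS_TAS, against 13.4%, 14.3% and 14.4% in PS_SILK. Over all called genes, those higher in PS_TAS took 66.5% ± 4.2 of the reads in PS_TAS and 7.32% ± 0.263 in PS_SILK, and those higher in PS_SILK took 7.14% ± 0.915 in PS_TAS and 48.9% ± 0.824 in PS_SILK (SD, n = 3 each). These shares follow from the choice of the genes and are a description.

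**Figure D2:**
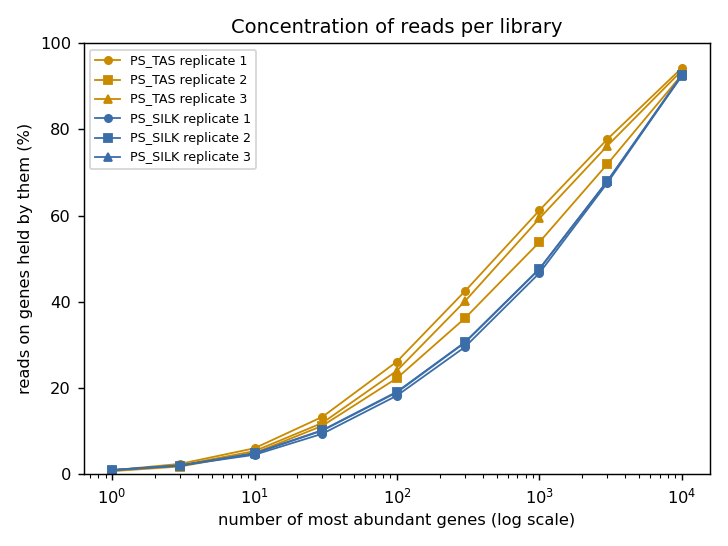
Share of the reads on genes (%, vertical axis) held by the most abundant genes (number of genes, horizontal log axis) in each of the 3 PS_TAS and 3 PS_SILK libraries. At 1000 genes the tassel libraries hold between 53.8% and 61.2% of their reads and the silk libraries between 46.6% and 47.6%.

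A part of these genes were not seen in the other organ at all. Among the genes higher in PS_TAS, 1805 (20.1%) had no read in any of the 3 PS_SILK libraries. Their mean in PS_TAS reached 1 CPM for 1074 genes, 10 CPM for 427 and 100 CPM for 151. They took 5.15%, 3.2% and 5.08% of the reads on genes of the PS_TAS libraries. In the other direction, 168 genes higher in PS_SILK (2.84%) had no read in any PS_TAS library. Of these, 40 reached a mean of 1 CPM and 2 reached 10 CPM. Among all 28997 genes tested, 2860 had no read in PS_SILK and 1001 had none in PS_TAS. A gene without a read in 1 organ can be called only toward the other, so these counts are a description. A count of 0 over the group allows up to 3 reads, which is 0.0566 CPM in PS_TAS and 0.0349 CPM in PS_SILK, so these genes were not detected at this depth rather than absent. With the 6 libraries fitted alone, the filter on low counts left 1072 genes without a read in silk and 48 without a read in the tassel. As such genes pass that filter through 1 organ only, their calls were fixed by it and are no result.

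The called genes were then placed among the 9 other tissues. Of the genes higher in PS_TAS, 3715 (41.3%, beside 15.6% of all genes tested) had their highest mean of all 11 tissues in the tassel, and for 1241 (13.8%) it was more than 16 times that of any of the other 9. Of the genes higher in PS_SILK, 1731 (29.3%, beside 8.44% of all genes tested) had their highest mean in silk, and for 37 (0.626%) it was more than 16 times that of any of the other 9. The choice of genes higher in an organ raises such shares in itself. Under 1 CPM in each of the other 9 tissues were 1503 of the tassel-higher genes (16.7%) and 187 of the silk-higher genes (3.17%). Among all 28997 genes tested, 2581 were in this class. Of the 1503 genes, 365 reached 100 CPM in the tassel, and of the 187 genes, 1 reached 100 CPM in silk. The 1503 genes alone took 24.2%, 17.1% and 23.3% of the reads in PS_TAS, against 0.0144%, 0.0186% and 0.0164% in PS_SILK. On average 21.5% of the tassel's reads thus came from genes hardly found elsewhere in the series. For the 187 genes of silk this share was 0.0638% of the silk reads. As both sets were chosen by their calls between the organs, these shares are a description.

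Among the other 9 tissues, the genes of each organ leaned to different places. The seedling blade (V2_LF) held the highest mean for 24.7% of the tassel-higher genes, against 17.5% of all genes tested. The adult blade (PS_LF) did so for 13.9%, against 9.67% of all. For the silk-higher genes, the ear held the highest mean for 22.6%, against 10.8% of all genes tested, and the immature leaf (V2_LF-I) for 18%, against 9.08%. Blades are mature green tissue, while the ear and the immature leaf are growing organs.

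To look at this from the other side, lists were made from the 27 libraries of the other tissues alone: genes at 10 CPM or more in a tissue and at least 4 times higher there than in each other tissue. The blade list, genes high in both PS_LF and V2_LF, had the largest share of called genes on the tassel side. Of its 545 genes, 446 were higher in PS_TAS (81.8%, beside 31% of all genes tested) and 12 in PS_SILK (2.2%, beside 20.4%), with a median log2 fold change of 2.89, beside 0.0859 over all genes tested. Summed over the list, the level was 43381, 43912 and 51263 CPM in PS_TAS, against 8537, 11384 and 9949 CPM in PS_SILK, and on average 381615 CPM in the blades themselves. The blade genes therefore stood well above silk in every tassel library and well below their level in a leaf. With library size alone 382 were higher in PS_TAS and 23 in PS_SILK, and without tassel replicate 2 the counts were 443 and 13.

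The ear list leaned to silk. Of its 67 genes, 17 were higher in PS_TAS (25.4%, beside 31% of all genes tested) and 32 in PS_SILK (47.8%, beside 20.4%). Median levels over the list were low, with 0.769 CPM in PS_TAS and 1.95 CPM in PS_SILK, against 29.3 CPM in the ear. The median log2 fold change was -1.12. Summed levels did not follow this median: they were 4709, 2920 and 4384 CPM in PS_TAS and 4325, 3844 and 3186 CPM in PS_SILK, and the groups overlapped. The immature leaf list was divided, with 41 of 94 genes higher in PS_TAS (43.6%, beside 31%) and 33 in PS_SILK (35.1%, beside 20.4%). Its sums were 726, 658 and 735 CPM in PS_TAS, against 4065, 5266 and 4967 CPM in PS_SILK. The internode list (PS_IN1) also went both ways. Of its 191 genes, 112 were higher in PS_TAS (58.6%, beside 31%) and 30 in PS_SILK (15.7%, beside 20.4%). Yet its sum was lower in the tassel, with 6132, 4680 and 4906 CPM in PS_TAS and 9985, 11210 and 9992 CPM in PS_SILK. In these lists the sums and the counts of genes thus did not run together. A list of genes high in both ear and immature leaf held 4 genes, of which 3 were higher in PS_SILK. Of the 34 genes of the hypocotyl list, 20 were higher in PS_TAS (58.8%, beside 31%) and 6 in PS_SILK (17.6%, beside 20.4%). Its median log2 fold change was 4.03, larger than that of the blade list, at median levels of 3.59 CPM in PS_TAS and 0.171 CPM in PS_SILK. Its sums were 441, 1857 and 1002 CPM in PS_TAS and 1017, 3445 and 2213 CPM in PS_SILK, and the groups overlapped. The lists of roots, of the 12-day seed and of the 35-day seed had 33.5%, 32.1% and 41.8% of their genes higher in PS_TAS, beside 31% of all genes tested. The shares higher in PS_SILK were 14.6%, 6.25% and 9.18%, beside 20.4%. In these 3 lists the median gene lay under 1 CPM in both organs.

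**Figure D3:**
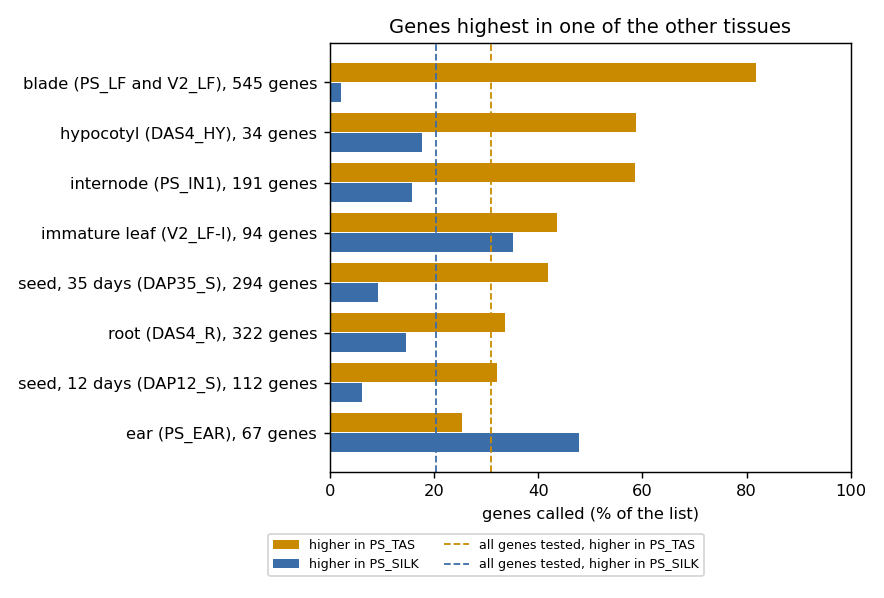
Share of the genes of each list (%, horizontal axis) called higher in PS_TAS (upper bar) and in PS_SILK (lower bar), for lists defined in the other 9 tissues, with dashed lines at the shares over all genes tested, 31% and 20.4%. The blade list has the largest share higher in PS_TAS, 81.8%, and of the 8 lists shown (the list of 4 genes is not drawn) the ear list alone has its larger share, 47.8%, in PS_SILK.

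By the naming rule, 2 IDs higher in each organ are given here. Zm00001d010630 had the largest difference in level. It reached 13281, 7288 and 10469 CPM in PS_TAS, against 0.685, 0.132 and 0.28 CPM in PS_SILK, and no other tissue had a mean above 1.91 CPM. Its log2 fold change was 14.75 ± 0.72 (SE) with an adjusted p of 1.37225e-15 by edgeR's quasi-likelihood test. Zm00001d029568 had the largest fitted fold change. It reached 4640, 4201 and 6779 CPM in PS_TAS and had no read in any PS_SILK library, so that it was at least 149176-fold higher in PS_TAS, with silk set to 3 reads over its 3 libraries. Outside the tassel it was found only in the ear, at 0.0131 CPM. Both genes were thus found almost entirely in the tassel.

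On the silk side, Zm00001d044122 had 131, 262 and 160 CPM in PS_TAS, against 5756, 5155 and 5163 CPM in PS_SILK. The gene is thus high in silk and moderate in the tassel, which had the second highest mean of the 11 tissues, before the 12-day seed at 55.6 ± 3.72 CPM (SD, n = 3). Its log2 fold change was -4.86 ± 0.61 (SE), with an adjusted p of 8.15209e-08 by edgeR. Zm00001d045875 had 1, 0 and 1 reads in the PS_TAS libraries, against 73166, 63922 and 77865 reads in the PS_SILK libraries. This is a ratio of 66331 of silk over tassel, with a counting interval of 18362 to 547723 (exact binomial, 95%, counting error only). It was found at 1.35 ± 0.482 CPM in the ear and at most at 0.169 CPM in any other tissue, so that it is close to a silk-only transcript in this series.

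The study names 7 nuclear genes by their ID, and 4 of them were called between the organs with more than a few reads in each library of the higher one. Zm00001d015293, tied to leaf development through a gene of rice, had 276.9, 200.1 and 235.9 CPM in PS_TAS, against 38.1, 34.6 and 30.8 CPM in PS_SILK. Its log2 fold change was 2.78 ± 0.15 (SE), with an adjusted p of 1.24314e-14 by edgeR. The tassel level, 237.6 ± 38.4 CPM, was the highest of the 11 tissues, and the blades had the lowest, at 18.5 ± 3.71 CPM in PS_LF and 11.9 ± 1.98 CPM in V2_LF (SD, n = 3 each). Zm00001d023262, brick3, belongs to the brick genes of maize, which act in the actin-dependent shaping of leaf epidermal cells. It had 59.1, 74.9 and 57.7 CPM in PS_TAS, against 203.2, 179.3 and 175.4 CPM in PS_SILK, and all tassel libraries lay below all silk libraries. Its log2 fold change was -1.54 ± 0.12 (SE), with an adjusted p of 1.98085e-11 by edgeR. Silk had 186 ± 15 CPM, after the ear (213.1 ± 19.1 CPM) and the immature leaf (195.5 ± 30.3 CPM), and these 3 did not differ beyond their spread. The tassel, with 63.9 ± 9.58 CPM, was above the seedling blade at 44 ± 4.6 CPM and below all other tissues (SD, n = 3 each).

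Zm00001d045721, Zm00001d045720 and Zm00001d045722 are of the TRICHOME BIREFRINGENCE-LIKE family, whose members are known to acetylate polysaccharides of the cell wall. Zm00001d045721 had 1, 2 and 1 reads in PS_TAS, against 334, 95 and 364 reads in PS_SILK. In level this is 0.0738 ± 0.0237 CPM in PS_TAS and 9.53 ± 5.84 CPM in PS_SILK (SD, n = 3 each), with a log2 fold change of -6.90 ± 0.67 (SE) and an adjusted p of 1.05887e-09 by edgeR. Silk replicate 2 was the lowest silk library, still well above the tassel. Zm00001d045720 had no read in PS_TAS and 1 read in PS_SILK, and Zm00001d045722 had none in either, so neither was tested. Of the 3 genes, Zm00001d045721 alone had more than 1 read in either organ. Zm00001d043505, a phosphotransmitter, is of a kind of protein that passes on the cytokinin signal from receptors to response regulators. It had 25, 69 and 64 reads in PS_TAS and none in PS_SILK, which makes it at least 83.6-fold higher in PS_TAS. Its 2.92 ± 1.17 CPM in the tassel were far below the 96 ± 6.4 CPM in PS_LF and the 86.3 ± 24.4 CPM in V2_LF, so that it shares the pattern of the blade list. Zm00001d008209, of the cyclophilin family of protein-folding enzymes, had 1.69, 1.36 and 2.77 CPM in PS_TAS and 0.554, 0.363 and 1.24 CPM in PS_SILK. It was not called, with a log2 fold change of 1.46 ± 1.00 (SE) and an adjusted p of 0.195 by edgeR, and with the 6 libraries alone it was called, with an adjusted p of 0.0449, and of 0.0123 with the replicate block.

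**Figure D4:**
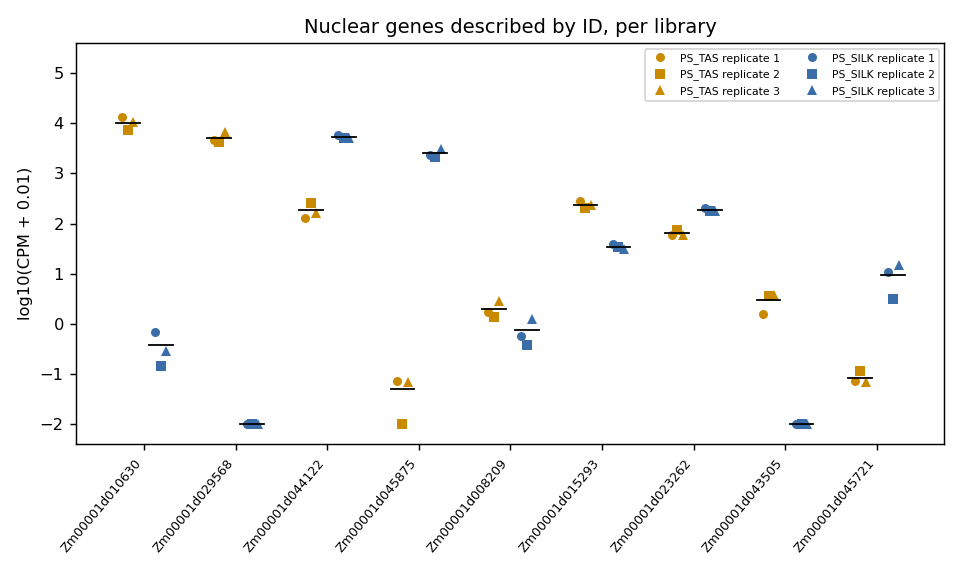
Level of the 9 tested nuclear genes given by ID, as log10(CPM + 0.01) on the vertical axis, with a point for each of the 3 PS_TAS libraries (left of each pair) and the 3 PS_SILK libraries (right), and bars at the mean. The points of both organs are apart for all of them, closest for Zm00001d008209, at 1.36 CPM in the lowest tassel and 1.24 CPM in the highest silk library.

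Genes of the mitochondrial and plastid genomes can be named, through their locus tags, and were chosen for description after their values were seen. The mitochondrial genome encodes parts of the respiratory chain, and the plastid genome parts of photosynthesis. As the libraries were selected for polyA tails, which organelle transcripts mostly lack, these reads are a small and uneven sample of organelle RNA. Reads of organelle DNA copied into the nucleus cannot always be told apart from them. Of 208 mitochondrial features, 87 had a read in the 6 libraries and 24 were tested, of which 22 were higher in PS_TAS. Of 157 plastid features, 34 had a read and 9 were tested, and all 9 were higher in PS_TAS. Beside 31% of all genes tested, 31 of 33 organelle genes were thus higher in the tassel, and all 33 had a positive log2 fold change. Silk reads were few, as 6 of the 33 genes had 10 reads in every silk library. In the main fit the filter on low counts used the libraries of all 11 tissues, so that the tissue through which each gene passed was not determined. With the 6 libraries alone, 21 organelle genes were tested and 20 were higher in PS_TAS. Most of these could not pass the filter through silk alone, so the share of 31 of 33 is a description.

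Mitochondrial genes summed to 169.9, 151.7 and 47 CPM in PS_TAS, against 6.03, 13.2 and 10.2 CPM in PS_SILK. The groups did not overlap, and the ratio of the means was 12.5 (exact two-sided permutation p = 0.1, the smallest possible). Tassel replicate 3 stood apart, at 4.78 times the silk mean, and without it the ratio was 16.4. Replicates 1 and 2 were above every one of the 27 libraries of the other tissues, which ran from 5.4 to 89 CPM, and replicate 3 was within that range. Plastid genes summed to 31.2, 28.7 and 12 CPM in PS_TAS, against 1.04, 2.61 and 2.48 CPM in PS_SILK. The tassel was second to the seedling blade, which had a mean of 46.4 CPM. Replicate 3 had the lowest level of the 3 tassel libraries in 28 of the 31 called organelle genes. It did not stand apart among the nuclear genes, where 56 of 14008 genes at 10 CPM or more (0.4%) lay over 1 log2 unit from both other tassel libraries. Multimapped reads, which are not counted on genes, made up 3.93% ± 0.454 of all reads in PS_TAS and 1.6% ± 0.0531 in PS_SILK (SD, n = 3 each), and their part in the organelle values was not tested.

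The mitochondrial genes of the respiratory chain were among the most abundant. For cox1, a core subunit of cytochrome c oxidase, 470, 452 and 96 reads were counted in PS_TAS, against 30, 82 and 41 reads in PS_SILK, and all tassel libraries lay above all silk libraries. Its log2 fold change was 3.44 ± 0.78 (SE, adjusted p = 0.000348 by edgeR) with all libraries, and 3.88 without tassel replicate 3. The other subunits of the same enzyme, cox3 and cox2, had log2 fold changes of 3.98 ± 0.78 and 5.13 ± 0.94 (SE). Of NADH dehydrogenase, the entry of the chain, nad4 had 241, 270 and 58 reads in PS_TAS, against 26, 46 and 24 reads in PS_SILK. For atp4, of the ATP synthase, 386, 475 and 163 reads were counted in PS_TAS, against 24, 60 and 39 reads in PS_SILK, a log2 fold change of 3.73 ± 0.70 (SE, adjusted p = 3.62632e-05 by edgeR). The respiratory genes named here thus all had higher levels in the tassel, in replicate 3 as well. A further subunit of the ATP synthase, atp6, had 22 reads in PS_TAS and 5 in PS_SILK in all, and its call (adjusted p = 0.0252 by edgeR) was lost under 7 alternatives, with adjusted p of 0.0547 to 0.12: DESeq2, library size alone, and leaving out any silk library or tassel replicate 1 or 2.

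Genes that serve the making of these proteins followed. The ccm genes act in the maturation of cytochromes of the c type: ccmFN had 121, 164 and 68 reads in PS_TAS, against 9, 15 and 12 reads in PS_SILK, and ccmC 90, 65 and 12 reads, against 4, 3 and 4. Ribosomal protein genes rps1, rps7 and rps12 had log2 fold changes of 4.01 ± 0.82, 4.65 ± 1.06 and 3.58 ± 0.61 (SE). The maturase gene mat-r, which lies in an intron of nad1 and acts in splicing, had 99, 65 and 32 reads in PS_TAS, against 1, 17 and 14 reads in PS_SILK. Both mitochondrial genes that were tested and not called are unidentified reading frames. One of them, orf101-a, had 15, 20 and 12 reads in PS_TAS and 15, 18 and 16 reads in PS_SILK, so that not every mitochondrial feature followed the sum.

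Among plastid genes, matK led, the gene of a splicing factor that lies in the intron of the trnK transfer RNA gene. It had 287, 212 and 82 reads in PS_TAS, against 19, 44 and 41 reads in PS_SILK, in level 11.2 ± 6.65 CPM in PS_TAS and 1.24 ± 0.544 CPM in PS_SILK (SD, n = 3 each). It was followed by ycf3, which acts in the assembly of photosystem I, with 35, 93 and 37 reads in PS_TAS, against 3, 11 and 6 reads in PS_SILK. Next came petD, of the cytochrome b6f complex, with 35, 79 and 10 reads in PS_TAS, against 1, 4 and 1 reads in PS_SILK, and atpF, of the plastid ATP synthase, with 42, 58 and 12 reads, against 1, 2 and 2. The plastid genes with the most reads, matK, ycf3, petD, atpF, trnK, ndhA and rps16, are all genes that contain an intron or lie in one. By contrast, psbA, of photosystem II, had 2, 9 and 3 reads in PS_TAS and 0, 1 and 0 reads in PS_SILK and was not tested. For rbcL, of Rubisco, the call was lost without tassel replicate 2 (adjusted p = 0.135 by edgeR) and under 3 other settings.

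**Figure D5:**
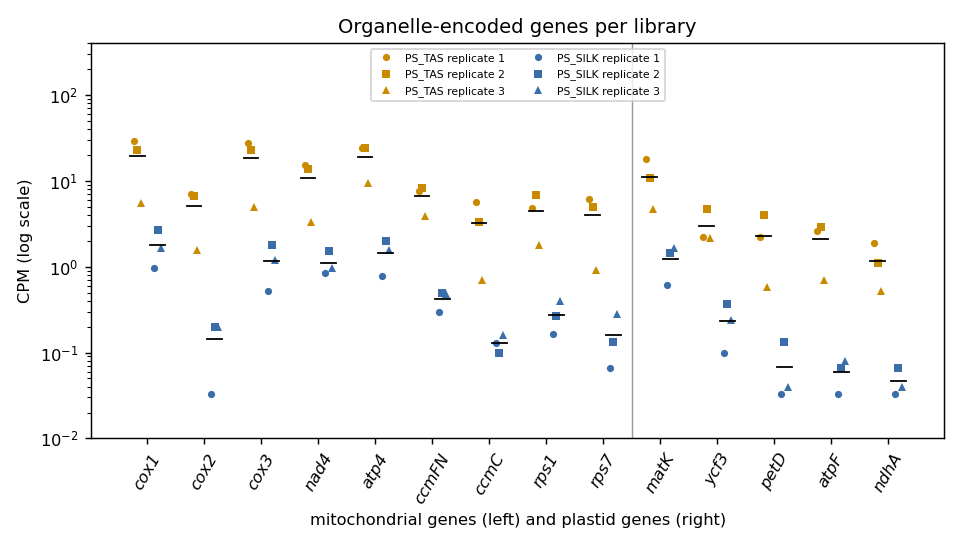
Level of 9 mitochondrial and 5 plastid genes in CPM (vertical log axis), with a point for each of the 3 PS_TAS libraries (left of each pair) and the 3 PS_SILK libraries (right), and bars at the mean. In all 14 genes the tassel points lie above the silk points, and tassel replicate 3 (triangles) is the lowest of the tassel, with 96 reads of cox1 against 470 and 452 in the other replicates.

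Noncoding features other than microRNA precursors, which carry no name in the files, numbered 1765, of which 235 were tested. Of these, 106 were higher in PS_TAS (45.1%, beside 31% of all genes tested) and 25 in PS_SILK (10.6%, beside 20.4%). Of the 106, 35 had no read in PS_SILK. Such features could be called only toward the tassel, so the share of 45.1% is a description. All 1765 features summed to 1906, 1490 and 756 CPM in PS_TAS, against 189, 220 and 209 CPM in PS_SILK. The tassel had the highest mean of the 11 tissues and the ratio of its mean to that of silk was 6.72, or 8.24 without tassel replicate 3. Replicates 1 and 3 of the 35-day seed, at 1057 and 1268 CPM, lay above tassel replicate 3, while seed replicate 2 had 219 CPM. In mitochondrial sums, too, seed replicates 1 and 3 were above replicate 2, with 89 and 81.5 CPM against 23.5 CPM. What sets libraries of the same tissue apart in these sums was not tested. The feature with the highest tassel level had 6098, 6224 and 364 reads in PS_TAS, against 463, 305 and 302 reads in PS_SILK, so that its difference rests on 2 of the tassel libraries. In 28 of the 106 features, tassel replicate 3 lay at under 0.333 of the mean of the other replicates, and it was the lowest tassel library in the organelle genes too. Another had 842, 670 and 869 reads in PS_TAS and none in PS_SILK, at least 1307-fold higher in PS_TAS and alike in all 3 libraries. The 154 microRNA precursors had no read on the counted strand in any of the 6 libraries. On the opposite strand they had 33, 36 and 18 reads in PS_TAS and 13, 20 and 18 reads in PS_SILK.

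The tassel libraries varied more than those of silk. Over genes at a mean of 10 CPM or more, the median SD of log2 CPM over replicates was 0.276 in PS_TAS (14008 genes) and 0.158 in PS_SILK (12835 genes). Tassel replicate 2 stood apart: 999 genes lay over 1 log2 unit below both other tassel libraries and 120 above them. For replicate 1 these counts were 197 and 91, and for replicate 3, 28 and 28. Of the 999 genes, 745 (74.6%) were among those higher in PS_TAS and 269 were under 1 CPM in each of the other 9 tissues. The median of the 1503 tassel-higher genes under 1 CPM elsewhere was 0.591 of the level in the other 2 tassel libraries, whereas the median of the blade list was 1.02. In TMM-scaled values, replicate 2 was thus lower in the genes most bound to the tassel and level in the blade list. Its TMM factor was 0.78, against 0.596 in replicate 1 and 0.637 in replicate 3. As a share of reads, the blade list took 2.58%, 3.43% and 3.26% in replicates 1, 2 and 3. Which of the 2 sets of genes had changed was not tested. Replicates 2 and 3 were cut on the same day, 28 November. They differed by a chi-square of 94.3 per degree of freedom, whereas replicate 3 and replicate 1, cut on 25 November, differed by 28.6.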

How the data were processed

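RNA was selected for polyA tails, and libraries were made with a TruSeq stranded kit and sequenced in paired ends. Trimming by the authors was done in Trimmomatic, ribosomal reads were filtered with sortMeRNA, and STAR, its version not given in the sources used here, served for alignment to AGPv4 of B73. The deposited values are raw counts per gene for 3 strand settings, with no normalization. The reverse column was used. Reads on lines that name no gene (a median of 12.1% per library) entered neither library sizes nor tests. STAR counts only reads that fall on 1 gene, so that near-identical genes lose reads.

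Counts of all 33 libraries were fitted with edgeR version 4.0.16 (R version 4.3.3), with a group per tissue, TMM scaling and filterByExpr (minimum count of 10, minimum total of 15), and PS_TAS was contrasted with PS_SILK. Standard errors were derived from the fold change and the F statistic. log2 CPM had a prior count of 2. The scripts were tested on simulated data. Alternatives were DESeq2 version 1.42.0, RLE scaling or library size alone, no filter, the unstranded column, other thresholds, glmTreat, the 6 libraries alone, with and without the replicate number as a block, and leaving out each library.

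The IDs given are the called gene with the largest difference in mean CPM in each direction, and the one with the largest fitted fold change among those at a mean of 50 CPM or more in the organ of higher level and with no overlap of replicates, as none of the genes so chosen could be tied to a name. The genes named by the study by ID were added. The lists of genes of other tissues were set after seeing the data. The gene lists and the rule were chosen with earlier results of these data known. Names came from a RefSeq table of the NAM-5.0 assembly, not AGPv4, which matched 365 features, all of organelles, so no coordinates are given. Gene Ontology terms of the study's supplement were not used, since the terms beside an ID differed between its sheets.

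Same-numbered tassel and silk libraries deviated together from their group means, with correlations over genes of 0.117 to 0.194, and each tassel library correlated best with its own number. By this check, and not by a label, the numbers were taken to pair the samples. The replicates are separate plants. Replicates differed by more than sampling noise (chi-square per degree of freedom of 26.8 to 118.7), and none was counted as a copy.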

Additional observations from a re-analysis of the deposited data

Results flagged for a closer look

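Reads on the strand opposite to a gene were not used in the comparison. They came to 1.36% ± 0.0363 of the counted reads in PS_TAS and 1.17% ± 0.0522 in PS_SILK (SD, n = 3 each). At least 100 such reads, and more than on the counted strand, were found in each of the 3 tassel libraries for 181 genes and in each of the 3 silk libraries for 186 genes. Of these, 78 in the tassel and 54 in silk had under 100 such reads in every library of the other organ. The 181 genes held 59.1% of the opposite-strand reads of the tassel, and the 186 genes 66.5% of those of silk. No library serves as a control for this signal, and the difference between the organs was not tested.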

How the results depend on the processing

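Genes higher in PS_SILK numbered 9837 with library size alone, 9223 without a fold threshold and 2737 at a log2 fold change beyond 2, against 5908 in the main fit. The 5908 genes remained among the 9837. Under the same settings 7179, 11094 and 6773 genes were higher in PS_TAS, against 8998. RLE scaling moved the median log2 fold change of all genes by 0.13 and gave 9470 and 5286 genes, DESeq2 gave 9157 and 5268, and glmTreat 7726 and 4333. With 1 library left out, 8791 to 9080 genes were higher in PS_TAS and 5526 to 5956 in PS_SILK. With the 6 libraries alone, 7466 and 5474 of 24616 genes were called, and with the replicate number as a block, 7493 and 5562. The block thus moved neither count by 1.5 times. Of the 42 named and organelle genes tested, 34 kept their direction and their side of the threshold in every alternative. Of 522 values, 16 lost the call, 7 gained it and none turned round. Between the fits of the 6 libraries with and without the block, the call of orf179 alone changed (adjusted p = 0.0592 with it and 0.0455 without it, by edgeR). The genes that lost a call are organelle genes with few reads. Alternatives for sets of genes were chosen after seeing the data. On the tassel side, the counts that moved by more than 1.5 times were 1072 genes without a read in silk and 20 organelle genes (19 with the block) in the 6 libraries alone, and 170 noncoding features and 2541 genes under 1 CPM elsewhere without the filter. On the silk side, they were 48 genes without a read in the tassel and 98 genes under 1 CPM elsewhere (93 with the block) in the 6 libraries alone, 23 blade genes and 43 noncoding features with library size alone, and 6 blade genes, 13 noncoding features and 123 genes under 1 CPM elsewhere with glmTreat. Depth limits what can be said of genes at a few reads.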

Other observations

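Reads outside genes made up 6.95% ± 0.143 of all reads in PS_TAS and 5.36% ± 0.339 in PS_SILK (SD, n = 3 each), and the groups did not overlap. Ambiguous reads, on more than 1 gene, made up 0.571% ± 0.0222 in PS_TAS and 0.688% ± 0.0176 in PS_SILK.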
